A study of Homo sapiens with 6 samples.

Results

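The genes described here build and police the mitotic spindle. They comprise 45 gene symbols that encode cyclins and kinases of mitotic entry, spindle checkpoint proteins, the chromosomal passenger complex, centromere and kinetochore proteins, spindle motors and poles, and factors of anaphase and cytokinesis. A gene was a member when its symbol in the authors' deposited comparison table was on a list of names, and its level was the sum of the TPM of its transcripts under each Ensembl gene ID. TPM is a share of a library's transcripts that is corrected for transcript length, so levels can be compared between genes. The 45 symbols gave 46 gene IDs, because SPC25 was listed under ENSG00000152253 and ENSG00000262452, of 63677 gene IDs in all. The 46 IDs passed the filter of a mean of at least 1 TPM over the 6 libraries, as did 22651 gene IDs in the whole table.

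Total RNA was sequenced from KMS27, an established human multiple myeloma line of malignant plasma cells. The study compared 3 libraries labelled HA-TAZ with 3 libraries labelled wild type, to find which transcripts change when TAZ is overexpressed. TAZ is the product of WWTR1 and a transcriptional coactivator that the Hippo pathway restrains, and HA is a short tag fused to it. The agent, promoter and duration of the overexpression, and whether the line is 1 clone, are not given in the sources used here. The columns of the control libraries carry the name scr, which is in no label. By elimination these 3 columns were assigned to wild type, and they are referred to as controls a, b and c. Titles of wild type samples contain the letters HA too. Values per library are listed in the order HA-TAZ 1, 2 and 3, then control a, b and c. Libraries were prepared in triplicate, and no label says that they came from separate cultures, so p-values measure the spread between these libraries, which may be technical. The depth of each library was unknown.

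A cell enters mitosis when cyclin B and CDK1 are activated by CDC25 phosphatases. Kinetochores assembled on CENPA chromatin then bind spindle microtubules, and kinetochores that are not yet attached keep the checkpoint kinases and MAD2 and BUB proteins active. Once chromosomes are aligned, CDC20 and the anaphase-promoting complex trigger separation, and the midzone directs cytokinesis. The RNA of most of these genes peaks in G2 and M phase in dividing cells. Their level in a bulk culture therefore depends on the share of cells in those phases as well as on RNA per cell, which cannot be told apart here.

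WWTR1 (ENSG00000018408) is a check of the labels. Its level was 293, 306 and 293 TPM in the HA-TAZ libraries against 2.69, 2.22 and 1.69 TPM in the controls, a log2 fold change of 6.80 (SE 0.088, limma's adjusted p = 1.14e-05). All 10 plasma cell markers examined had a mean above 1 TPM, with summed levels of 2788 to 3220 TPM in HA-TAZ and 4274 to 4831 TPM in control libraries. Of 4 B cell, 3 T cell and 3 myeloid markers 0 reached a mean of 1 TPM over the 6 libraries, with sums from 0.0476 to 2.31 TPM, and 2 of 3 stromal and 1 of 3 epithelial markers did, with sums between 1.91 and 4.89 TPM in any library. The epithelial sum ranged from 1.91 to 2.99 TPM in HA-TAZ and from 3.69 to 4.796 TPM in controls. The plasma cell, T cell and epithelial sums did not overlap between the groups, and their part in the results was not tested. The plasma cell sum was mostly JCHAIN. JCHAIN, CD38, TNFRSF17, IRF4, PRDM1, XBP1, MZB1 and FCRL5 were each lower in every HA-TAZ library than in every control. So were 43.6% of all genes tested, with TPM as deposited. SDC1 overlapped between the groups, and SLAMF7 was higher in HA-TAZ (6.55 to 7.78 TPM) than in control libraries (3.50 to 4.51 TPM). All marker levels are TPM as deposited. To compare libraries, TPM was divided by a median-of-ratios factor, which was 0.866 to 0.967 in HA-TAZ and 1.06 to 1.21 in control libraries. The result is called scaled TPM. This choice matters for the mitotic genes, and their calls are therefore given on both scales.

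Promoters of many of these genes share short elements, of which the cell cycle genes homology region, here searched as TTTGAA, and the CCAAT box, searched as CCAAT, are the best known. Windows from 250 bases before to 50 bases after a start site were available in RefSeq (GRCh38.p14) for 39 of the 45 symbols and not for AURKA, BIRC5, BUB3, TPX2, TTK and UBE2C. Both strands were searched, and matches of the 2 motifs can share 1 letter. The element TTTGAA was present in at least 1 window of 29 of the 39 genes (74.4%) and of 18.2% of the 27305 genes in the table. CCAAT was present for 32 (82.1%) against 39.7%, and 24 genes had both, against 8.4% of all genes. Windows are shown for the 5 genes that the test called higher and for ANLN, the gene with the most negative fold change, with the letters of either motif in capitals. Of the starts of RANGAP1 and CDC25B, the one nearest to the most abundant transcript is shown.
CCNB1 (chr5:69166900-69167199, plus strand): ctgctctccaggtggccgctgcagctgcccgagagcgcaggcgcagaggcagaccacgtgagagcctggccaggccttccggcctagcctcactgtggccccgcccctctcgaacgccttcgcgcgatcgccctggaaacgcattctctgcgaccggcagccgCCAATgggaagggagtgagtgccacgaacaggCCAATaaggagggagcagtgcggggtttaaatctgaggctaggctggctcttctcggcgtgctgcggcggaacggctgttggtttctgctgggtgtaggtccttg
CDC20 (chr1:43358731-43359030, plus strand): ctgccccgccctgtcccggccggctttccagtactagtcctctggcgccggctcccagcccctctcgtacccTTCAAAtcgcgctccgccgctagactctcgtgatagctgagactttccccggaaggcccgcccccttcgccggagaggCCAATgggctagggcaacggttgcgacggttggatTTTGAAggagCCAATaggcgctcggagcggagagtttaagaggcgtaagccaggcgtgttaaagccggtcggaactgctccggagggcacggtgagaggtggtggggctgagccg
BUB1 (chr2:110678014-110678313, minus strand): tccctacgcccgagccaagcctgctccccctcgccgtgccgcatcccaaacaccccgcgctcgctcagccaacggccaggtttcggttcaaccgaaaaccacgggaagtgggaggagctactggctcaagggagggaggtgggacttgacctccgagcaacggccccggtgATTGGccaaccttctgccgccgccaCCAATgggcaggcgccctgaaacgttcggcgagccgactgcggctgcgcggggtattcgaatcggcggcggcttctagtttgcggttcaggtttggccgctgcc
RANGAP1 (chr22:41286138-41286437, minus strand): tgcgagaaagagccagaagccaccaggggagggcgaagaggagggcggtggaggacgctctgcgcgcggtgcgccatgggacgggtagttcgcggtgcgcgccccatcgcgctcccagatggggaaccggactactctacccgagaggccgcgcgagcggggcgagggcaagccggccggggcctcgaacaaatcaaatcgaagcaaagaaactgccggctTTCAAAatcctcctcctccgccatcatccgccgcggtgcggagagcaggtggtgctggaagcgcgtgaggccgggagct
CDC25B (chr20:3796060-3796359, plus strand): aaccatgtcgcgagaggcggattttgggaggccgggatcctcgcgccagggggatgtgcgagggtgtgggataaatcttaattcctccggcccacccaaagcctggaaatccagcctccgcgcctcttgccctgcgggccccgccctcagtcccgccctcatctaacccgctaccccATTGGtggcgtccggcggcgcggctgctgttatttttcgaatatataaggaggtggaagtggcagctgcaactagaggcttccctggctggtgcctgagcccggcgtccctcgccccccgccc
ANLN (chr7:36389612-36389911, plus strand): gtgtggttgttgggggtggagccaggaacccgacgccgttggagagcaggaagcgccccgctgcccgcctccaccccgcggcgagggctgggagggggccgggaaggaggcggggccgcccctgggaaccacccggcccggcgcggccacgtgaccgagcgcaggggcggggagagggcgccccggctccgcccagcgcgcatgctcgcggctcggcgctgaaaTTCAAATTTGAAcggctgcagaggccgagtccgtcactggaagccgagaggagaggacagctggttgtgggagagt
The CDC20 window held both motifs, on 2 places each. The windows of CCNB1, BUB1 and CDC25B held CCAAT alone, and those of RANGAP1 and ANLN held TTTGAA alone. Over the 39 genes with a window, the median log2 fold change (HA-TAZ over control, scaled TPM) was −0.016 for genes with TTTGAA in a window and 0.061 for the 10 without. It was 0.041 with CCAAT and −0.082 for the 7 without. A match of letters is a description and not a binding site.

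As a whole the mitotic genes were well expressed and moved little. Their mean level ran from 3.78 TPM for SPC25 under ENSG00000262452 to 128 TPM for TOP2A, with a median of 39.7 TPM against 6.398 TPM over all genes tested. Together they held 0.178%, 0.199% and 0.172% of TPM in the HA-TAZ libraries against 0.241%, 0.220% and 0.206% in the controls. The groups did not overlap in this share. In scaled TPM their sums were 2061, 2060 and 1937 in the HA-TAZ libraries and 1990, 2019 and 1952 in the controls, which overlapped. Replicates were close, with a median SD over the members of 0.064 among HA-TAZ and 0.074 among control libraries on the log2 scale of scaled TPM. HA-TAZ 3 had the lowest scaled level of 18 of the 46 gene IDs and control a of 16. With TPM as deposited, control a instead had the highest level of 34 of the 46.

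In scaled TPM, 5 of 46 gene IDs rose in HA-TAZ libraries and 0 fell (limma, an adjusted p-value under 0.05 over all genes tested), a split that turned to 0 higher and 7 lower with TPM as deposited. Over all genes tested 4.67% were called higher and 2.63% lower, 7.29% in all. The genes that rose were CDC25B and RANGAP1, by about the same amount, and BUB1, CDC20 and CCNB1, by less. Of all members, 23 fold changes were positive and 23 negative, with a median of −0.00087 and a range from −0.44 for ANLN to 0.44 for RANGAP1. The median over all genes tested was −0.025, but these genes had a lower median level, 6.398 TPM against 39.7 TPM. With a minimum mean of 5 TPM the medians were −0.061 for members and −0.013 for all genes, of which 14.8% were called. They were −0.083 and −0.0027 with protein-coding transcripts only, an alternative chosen after seeing the data. In the fit over all genes tested, before adjustment, 11 members were higher and 3 lower at a p-value under 0.05, against 16.6% and 14.1% of all genes. HA-TAZ libraries lay above the controls without overlap for 13 gene IDs and below them for 6, against 20.2% and 18.3% of all genes, 38.5% in all. When any library was left out, BUB1, CDC20, CCNB1 and RANGAP1 lost their calls, and 0 or 1 member, CDC25B, was still called. In these fits 0.513% to 2.09% of all genes were called. The log2 fold changes stayed between 0.25 and 0.30 for CCNB1, 0.26 and 0.33 for BUB1, 0.24 and 0.33 for CDC20, 0.36 and 0.48 for RANGAP1, and 0.38 and 0.46 for CDC25B.

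**Figure D1:**
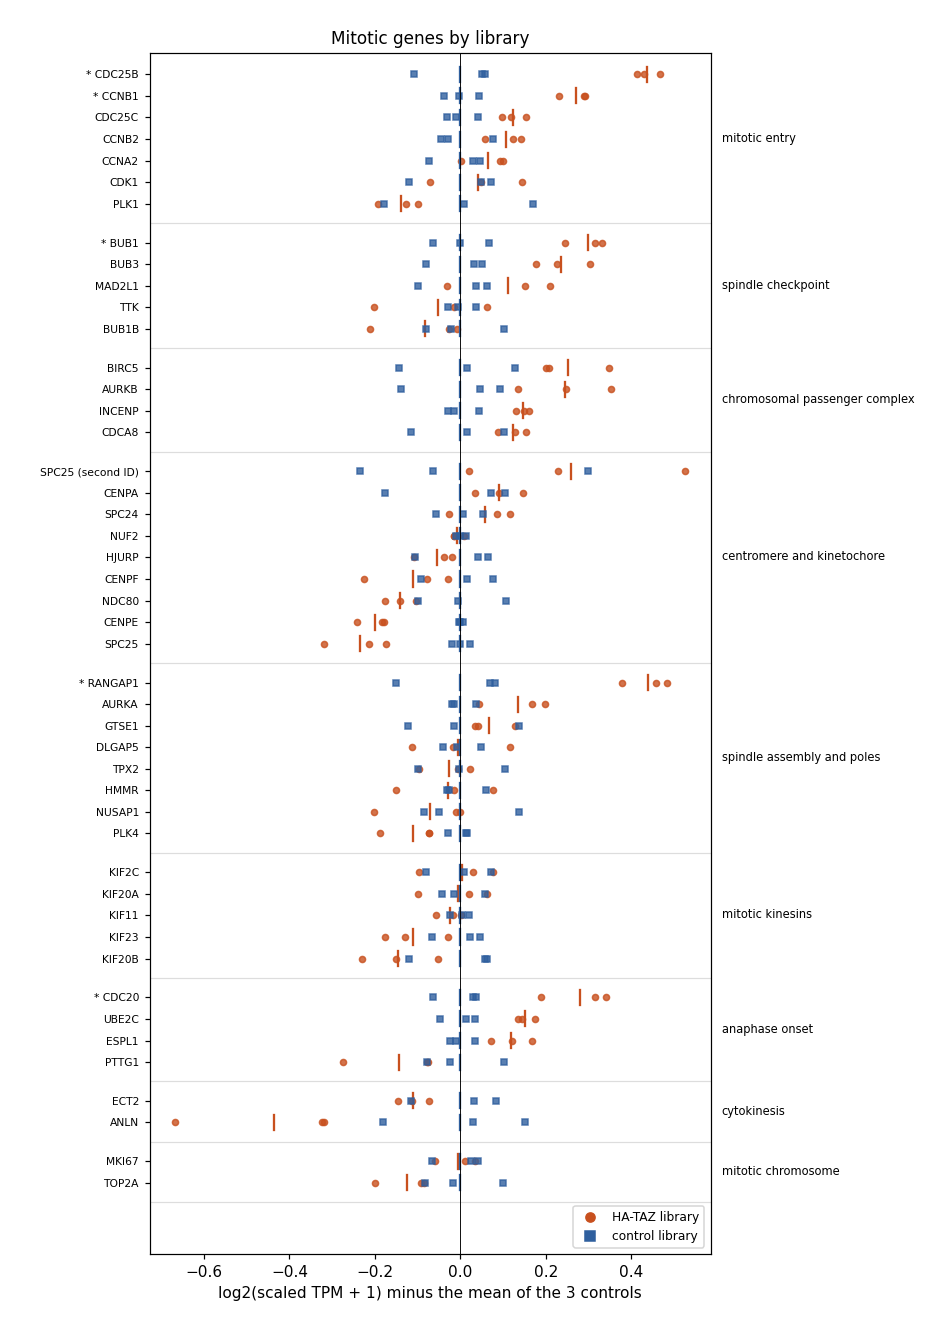
Difference of each library from the mean of the 3 controls in log2(scaled TPM + 1), for the 46 gene IDs in rows grouped by role. Circles are HA-TAZ libraries, squares are controls, short bars are group means, and a star marks an adjusted p-value under 0.05 (limma). CDC25B and RANGAP1 have the highest means, 0.44 each, and ANLN the lowest, −0.44; directions depend on the scaling, and with TPM as deposited the means of BUB1, CDC20 and CCNB1 do not lie apart from the controls.

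Mitotic entry genes included 2 of the 5 calls. CDC25B (ENSG00000101224), a phosphatase that removes inhibitory phosphates from CDK1, was at 39.6, 43.7 and 41.9 TPM in the HA-TAZ libraries against 37.8, 38.1 and 37.2 TPM in the controls. Every HA-TAZ library lay above every control. In scaled TPM the means were 46.0 ± 0.937 and 33.8 ± 2.21 (SD, n = 3 each) and the log2 fold change was 0.44 (SE 0.059, limma's adjusted p = 0.0224). CCNB1 (ENSG00000134057), cyclin B1, was at 56.0, 62.6 and 55.2 TPM against 62.0, 57.3 and 57.4 TPM. These values overlapped as deposited. After scaling they were 64.7, 64.7 and 62.0 against 51.3, 52.6 and 54.3 scaled TPM, without overlap, and the log2 fold change was 0.27 (SE 0.043, limma's adjusted p = 0.0313) but −0.026 with TPM as deposited. PLK1, the polo kinase that drives entry and had the highest level of these 7 genes, was at 75.8, 77.4 and 72.5 scaled TPM in HA-TAZ and 93.4, 83.5 and 73.1 in control libraries. Control c lay inside the HA-TAZ range for PLK1, with a log2 fold change of −0.14 (limma's adjusted p = 0.352). CDC25C, CCNB2, CCNA2 and CDK1 had log2 fold changes from 0.041 to 0.12, with adjusted p-values of 0.198 or more (limma).

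Of the 5 spindle checkpoint genes, BUB1 rose. BUB1 (ENSG00000169679), a kinase that recruits checkpoint proteins to kinetochores, was at 42.5, 47.0 and 41.2 TPM in HA-TAZ and 46.9, 44.4 and 39.2 TPM in control libraries. The groups overlapped as deposited, and the log2 fold change on that scale was 0.0028. In scaled TPM it was at 49.1, 48.6 and 46.3 against 38.8, 40.7 and 37.1, and the log2 fold change was 0.30 (SE 0.052, limma's adjusted p = 0.0370). BUB3, the adaptor that binds BUB1 and the most abundant of the 5, was at 100.5, 95.1 and 91.9 scaled TPM in HA-TAZ and 76.7, 84.1 and 83.0 in control libraries. The groups of BUB3 did not overlap on that scale, but the gene did not pass the test (log2 fold change 0.24, limma's adjusted p = 0.0602). MAD2L1, the inhibitor of CDC20, had a log2 fold change of 0.11. TTK, the kinase that starts the checkpoint, was at −0.052. BUB1B, which encodes the inhibitor BUBR1, was at 53.9, 54.7 and 47.3 against 59.1, 51.9 and 54.1 scaled TPM, which overlapped (log2 fold change −0.082).

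All 4 chromosomal passenger genes had positive fold changes and 0 passed the test, against 10567 positive of 22651 genes tested and 7.29% called. This complex corrects faulty attachments through the kinase AURKB and its partners BIRC5 (survivin), CDCA8 (borealin) and INCENP. BIRC5 was at 45.003, 40.7 and 40.5 scaled TPM in HA-TAZ and 31.7, 35.5 and 38.5 in control libraries, without overlap, with a log2 fold change of 0.25 (limma's adjusted p = 0.114). INCENP, the scaffold and the most abundant of the 4, was at 52.9, 53.4 and 52.2 against 49.1, 47.2 and 46.7 scaled TPM (log2 fold change 0.15, limma's adjusted p = 0.0786). CDCA8 was at 25.6, 24.4 and 25.1 against 21.1, 23.2 and 24.7 scaled TPM, which overlapped (log2 fold change 0.12). AURKB had a log2 fold change of 0.25. With TPM as deposited the 4 log2 fold changes were negative, from −0.17 for CDCA8 to −0.041 for BIRC5. With protein-coding transcripts only, INCENP (−0.063) and CDCA8 (−0.023) were negative, and BIRC5 (0.13) and AURKB (0.24) positive.

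Of the centromere and kinetochore genes, 6 of 9 gene IDs had negative fold changes, where 12084 of the 22651 genes tested were negative. The test called 0 of the 9, against 7.29% of all genes. SPC25 (ENSG00000152253), a subunit of the NDC80 complex that grips microtubules, was at 12.1, 12.5 and 11.2 scaled TPM in HA-TAZ and 14.2, 14.4 and 14.0 in control libraries. These did not overlap, with a log2 fold change of −0.24 (limma's adjusted p = 0.0688). The other SPC25 ID was at 5.18, 4.03 and 3.35 against 4.28, 2.65 and 3.11 scaled TPM, with a log2 fold change of 0.26. Reads of the 2 copies cannot be assigned with certainty, and for their sum the log2 fold change was −0.12 (limma's adjusted p = 0.354). CENPE, a kinesin that carries chromosomes to the spindle equator, was at 23.6, 23.7 and 22.6 in HA-TAZ and 26.9, 26.8 and 27.0 scaled TPM in controls. It also did not overlap and missed the threshold by little (log2 fold change −0.20, limma's adjusted p = 0.0503). The other NDC80 complex subunits had log2 fold changes of −0.14 for NDC80, −0.0072 for NUF2 and 0.058 for SPC24, none of them called. CENPF, a large kinetochore protein and the most abundant of this group, was at 40.8, 46.9 and 45.2 against 48.4, 50.5 and 44.8 scaled TPM, which overlapped (log2 fold change −0.11). CENPA, the centromeric histone, was at 0.091 and its chaperone HJURP at −0.055.

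RANGAP1 rose among the 8 genes of spindle assembly and poles. RANGAP1 (ENSG00000100401), which activates the GTPase of Ran and so shapes the Ran gradient around chromosomes, was at 27.4, 28.9 and 28.6 TPM in HA-TAZ and 24.7, 26.1 and 25.5 TPM in control libraries. As for CDC25B, the groups did not overlap even as deposited. In scaled TPM the means were 31.2 ± 1.19 and 22.8 ± 2.11 (SD, n = 3 each) and the log2 fold change was 0.44 (SE 0.078, limma's adjusted p = 0.0374). NUSAP1, a microtubule-bundling protein with the highest level of the 8, was at 102.8, 102.1 and 89.4 scaled TPM in HA-TAZ and 99.4, 113.3 and 96.9 in control libraries, which overlapped (log2 fold change −0.072). PLK4, the kinase of centriole duplication, was at 32.7, 32.7 and 30.1 against 33.7, 34.9 and 34.8 scaled TPM, without overlap (log2 fold change −0.11, limma's adjusted p = 0.196). AURKA, the kinase of spindle poles, was at 0.14, and its activator TPX2 at −0.027. The microtubule-associated proteins GTSE1, DLGAP5 and HMMR ranged from −0.030 to 0.068.

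Among 5 mitotic kinesins 0 were called, against 7.29% of all genes. The HA-TAZ and control values of all 5 overlapped in scaled TPM, where 38.5% of all genes did not overlap. KIF11, which slides spindle poles apart and was the most abundant, was at 34.0, 34.4 and 33.0 in HA-TAZ and 34.5, 34.9 and 33.8 scaled TPM in control libraries (log2 fold change −0.025). KIF2C, a microtubule depolymerase, was at 12.6, 13.1 and 11.5 against 11.6, 12.4 and 13.04 scaled TPM (log2 fold change 0.0028). KIF20B, a motor of late mitosis, was at 21.9, 25.0 and 23.3 against 27.1, 23.8 and 27.0 scaled TPM (log2 fold change −0.14). KIF20A and the midzone motor KIF23 had log2 fold changes of −0.0065 and −0.11. With TPM as deposited all 5 kinesins lay below the controls without overlap, as did 43.6% of all genes. With protein-coding transcripts only, KIF11 was called lower (log2 fold change −0.17, limma's adjusted p = 0.0394).

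CDC20 was the gene of anaphase onset that rose. CDC20 (ENSG00000117399), the activator of the anaphase-promoting complex, was at 40.7, 40.8 and 41.1 TPM in HA-TAZ and 42.7, 41.3 and 39.9 TPM in control libraries, so the deposited values overlapped. Its scaled values were 47.0, 42.2 and 46.2 against 35.3, 37.9 and 37.7, and the log2 fold change was 0.28 (SE 0.060, limma's adjusted p = 0.0494) but −0.014 with TPM as deposited. UBE2C, the ubiquitin-conjugating enzyme of the complex, was at 98.2, 100.2 and 97.5 against 85.8, 90.9 and 89.5 scaled TPM, without overlap (log2 fold change 0.15, limma's adjusted p = 0.0738). ESPL1 (separase), which cuts cohesin, was at 0.12. PTTG1, its inhibitor securin and the most abundant of the 4, was at 104.4, 104.6 and 90.9 against 118.4, 108.5 and 104.5 scaled TPM, which overlapped (log2 fold change −0.14).

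ANLN, or anillin, a scaffold of the contractile ring, had the most negative fold change of all members. Its deposited levels were 36.8, 41.2 and 29.6 TPM in HA-TAZ against 71.9, 59.4 and 49.7 TPM in control libraries. HA-TAZ lay below the controls on both scales, with 42.5, 42.6 and 33.3 against 59.5, 54.5 and 47.0 scaled TPM. The spread within groups was wide, and the log2 fold change of −0.44 (SE 0.13) did not pass the test (limma's adjusted p = 0.0899). ECT2, which activates RhoA at the cleavage site, was at 27.7, 29.2 and 28.4 against 31.5, 32.7 and 28.4 scaled TPM, which overlapped (log2 fold change −0.11). TOP2A, which untangles sister DNA, was at 123.5, 123.0 and 114.1 scaled TPM in HA-TAZ and 140.6, 129.5 and 123.8 in control libraries. These values stood apart by a narrow margin (log2 fold change −0.13, limma's adjusted p = 0.236). MKI67, the proliferation antigen Ki-67 that coats mitotic chromosomes, was at 56.9, 60.8 and 59.7 against 61.1, 60.3 and 56.6 scaled TPM, which overlapped, with a log2 fold change of −0.0046.

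The scaling changed the sign of many members. With TPM as deposited the median of the members was −0.28, next to −0.27 over all genes. On that scale 0 members were called higher and 7 were called lower (ANLN, SPC25, CENPE, NDC80, PLK4, NUF2 and SPC24), against 1.15% and 13.5% of all genes, 14.7% in all. HA-TAZ lay below the controls without overlap for 30 gene IDs and above them for 2, CDC25B and RANGAP1, against 43.6% and 4.41% of all genes, 48.0% in all. When the factors were computed over protein-coding genes only, 4 were called higher (CDC25B, RANGAP1, BUB1 and CCNB1) and 2 lower (CENPE and SPC25), against 2.91% and 3.79% of all genes, 6.71% in all. The log2 fold changes of CDC25B and RANGAP1 were 0.14 and 0.15 with TPM as deposited, where neither passed the test (limma's adjusted p = 0.129 and 0.115).

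**Figure D2:**
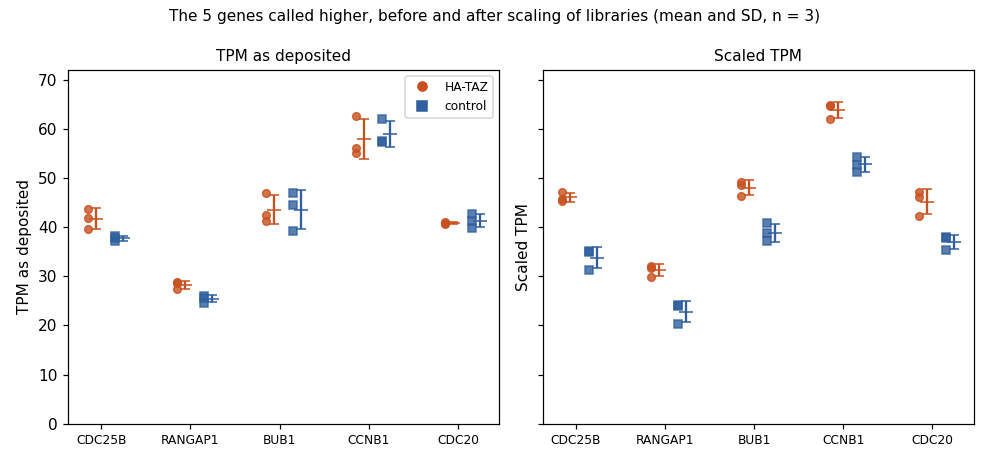
TPM as deposited (left) and scaled TPM (right) of the 5 genes called higher, with each library as a point and the mean and SD of 3 libraries beside it. On the left only CDC25B and RANGAP1 separate HA-TAZ from control libraries, while on the right all 5 do.

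**Figure D3:**
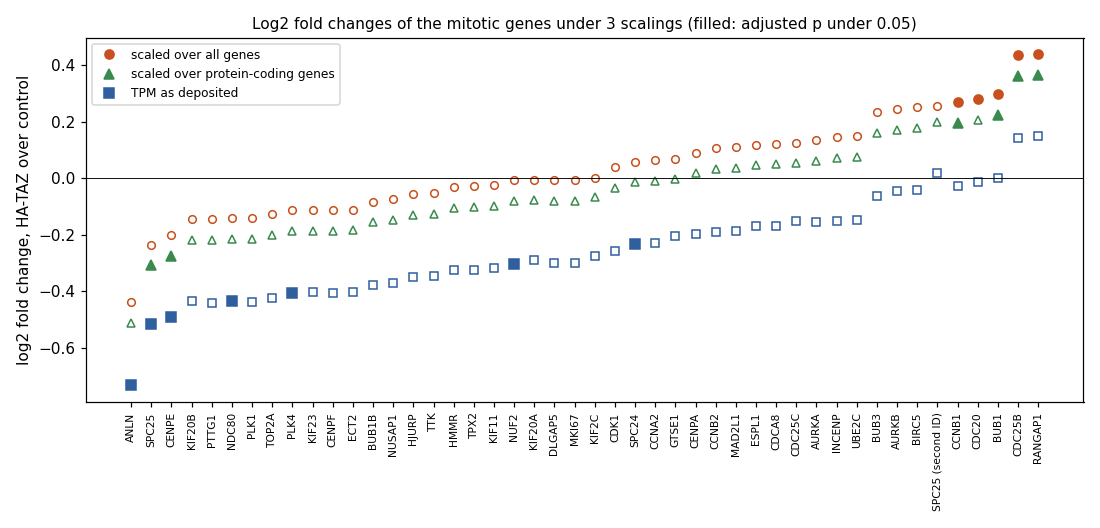
Log2 fold change of each of the 46 gene IDs under 3 scalings, ordered by the value scaled over all genes, with filled symbols for an adjusted p-value under 0.05 (limma). The values shift down from the first to the last scaling: 5 are called higher and 0 lower when scaled over all genes, 4 and 2 when scaled over protein-coding genes, and 0 and 7 with TPM as deposited.

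Ratios between related members within a library do not depend on the scaling. The ratio of BUB1 to its paralogue BUB1B was 0.912, 0.888 and 0.978 in HA-TAZ and 0.657, 0.785 and 0.686 in control libraries. The ratio of CDC25B to CDC25C was 4.23, 4.07 and 4.42 against 3.19, 3.63 and 3.44, and that of CCNB1 to CCNB2 was 1.21, 1.23 and 1.23 against 1.10, 1.03 and 1.15. In these 3 pairs the HA-TAZ values lay above the controls without overlap (exact two-sided permutation p = 0.1, the smallest that 3 against 3 libraries allow, adjusted p = 0.2 over 6 pairs). The ratios of AURKB to AURKA, of PLK1 to PLK4 and of KIF20B to KIF20A overlapped between the groups. The means of these 3 ratios were 0.869 and 0.799, 2.36 and 2.42, and 1.45 and 1.60 in HA-TAZ and control libraries. The 6 pairs were chosen after the values had been seen. In the 3 pairs that lay apart, the numerator was a gene already called higher and the denominator was not called. Their p-values are therefore no separate test.

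For most members, part of the TPM fell on transcript models that GENCODE release 29 gives a type other than protein-coding. For AURKA, TPX2, CCNA2, KIF11, CDCA8 and RANGAP1 this part was 0% in every library. Total RNA holds unspliced and partly spliced RNA, so such models can collect intron reads as well as stable non-coding isoforms. Of the members' TPM on models typed in that release, 19.8%, 21.4% and 20.1% lay on these models in HA-TAZ and 24.0%, 23.0% and 23.0% in control libraries. The groups did not overlap (means 20.4 ± 0.858% and 23.4 ± 0.573%, SD, n = 3 each, exact permutation p = 0.1). Models with a retained intron took 8.996 ± 0.379% and 10.9 ± 0.550% of the members' TPM (SD, n = 3 each, exact permutation p = 0.1). The same shift was present over all tested protein-coding genes, the members included, with 19.8 ± 0.392% and 22.1 ± 0.322% (SD, n = 3 each). The share was between 0 and 100% for 39 gene IDs, and its mean was lower in HA-TAZ for 32 of them and higher for 7, where it was lower for 72.2% of 9811 protein-coding genes. The median difference was −1.86 percentage points for the members and −2.34 for those genes. It was lower without overlap for 10 and higher for 0, against 24.5% and 3.22% of protein-coding genes. BUB1 had 24.8%, 25.6% and 26.6% in HA-TAZ and 34.0%, 39.0% and 31.7% in control libraries, which did not overlap. ANLN had means of 37.3 ± 3.36% and 47.8 ± 6.73%, and PTTG1 of 29.6 ± 9.02% and 45.1 ± 11.2% (SD, n = 3 each), both with overlap. For MAD2L1, AURKB, INCENP and NUSAP1 the most abundant model itself was a non-coding type. It was ENST00000333047.5, a target of nonsense-mediated decay with 75.7% of the TPM of MAD2L1, ENST00000583124.1, a retained intron model with 22.5% of AURKB, and the processed transcripts ENST00000531099.1 with 36.9% of INCENP and ENST00000558582.1 with 27.4% of NUSAP1. Among the other genes described by library, the most abundant transcript held all of the TPM of KIF11 (ENST00000260731.3), 96.9% of SPC25 (ENST00000282074.2) and 89.03% of TOP2A (ENST00000423485.1). It held 79.2% of CDC20 (ENST00000310955.6), 76.5% of CDCA8 (ENST00000373055.1), 69.4% of CENPF (ENST00000366955.3) and 69.0% of RANGAP1 (ENST00000356244.3). For BIRC5 (ENST00000350051.3), BUB1B (ENST00000287598.6), PTTG1 (ENST00000352433.5), MKI67 (ENST00000368654.3), KIF20B (ENST00000260753.4) and BUB1 (ENST00000302759.6) it held from 51.9% to 58.4%. For KIF2C (ENST00000372224.4), PLK1 (ENST00000300093.4), CCNB1 (ENST00000506572.1), BUB3 (ENST00000368865.4), ECT2 (ENST00000232458.5), CDC25B (ENST00000439880.2), PLK4 (ENST00000270861.5) and ANLN (ENST00000265748.2) it held from 26.2% to 49.8%. The other SPC25 ID had 89.1% on ENST00000573221.1, which is not typed in that release.

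**Figure D4:**
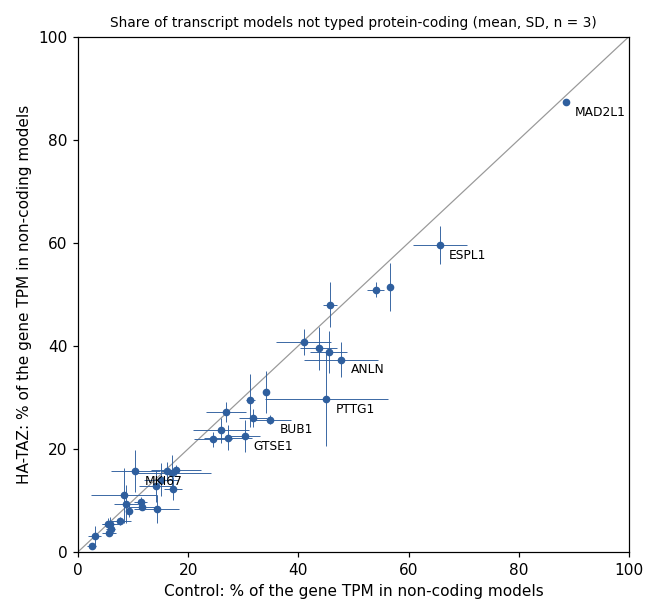
Percent of a gene's TPM on transcript models not typed as protein-coding, with the control mean on the x axis and the HA-TAZ mean on the y axis and SD bars over 3 libraries. Each point is 1 of the 39 gene IDs with a share between 0 and 100%, and 32 lie below the diagonal, where the HA-TAZ mean is lower.

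When only transcripts typed protein-coding were summed and rescaled, an alternative chosen after seeing the data, more members were called lower than higher. BUB1, RANGAP1 and CDC25B were called higher, and SPC25, ANLN, NDC80, CENPE, TOP2A, NUSAP1, CENPF and KIF11 lower (limma, an adjusted p-value under 0.05). These 3 and 8 of 45 tested IDs stand against 9.47% and 9.41% of the 10527 genes in that fit. BUB1 was at 34.3, 34.6 and 33.1 against 27.8, 25.8 and 26.6 scaled TPM of coding transcripts, with a log2 fold change of 0.33 (limma's adjusted p = 0.00663). NDC80 was at 32.3, 33.04 and 30.4 against 38.7, 38.3 and 41.4, with a log2 fold change of −0.30 (limma's adjusted p = 0.0134). ANLN had a log2 fold change of −0.32 with a smaller error than in the sum over all its models (SE 0.075). CCNB1 and CDC20, at 0.14 and 0.15, were not called (limma's adjusted p = 0.0518 and 0.180).

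The authors' deposited table tests each transcript by itself. Of 357 transcripts of these genes it gave statistics for 309, and 8 transcripts of 8 genes had a q-value, the authors' adjusted p-value, under 0.05. That is 2.59% of the members' transcripts, against 5.68% of all 109487 transcripts with statistics in the authors' deposited table. The 8 effects were positive and 0 were negative, against 4.08% and 1.60% over all transcripts. The BUB1 transcript ENST00000302759.6 had the smallest q-value of these genes in the authors' deposited table, 1.39e-08, where its natural log effect was 0.383 (SE 0.0579). Its level was 23.9, 27.2 and 21.9 TPM in HA-TAZ and 22.4, 21.2 and 18.8 TPM in control libraries, so the deposited values overlapped. RANGAP1 ENST00000356244.3 had 0.515 in the authors' deposited table (SE 0.0829, q-value 1.60e-07). Its levels were 20.4, 21.5 and 21.5 TPM in HA-TAZ and 14.5, 16.6 and 16.6 TPM in control libraries, without overlap. CDC25B ENST00000439880.2 had 0.529 in the authors' deposited table (SE 0.141, q-value 0.00666). This transcript held 33.1% of the gene's TPM. The other 5 transcripts in the authors' deposited table belonged to BIRC5 (0.275), ESPL1 (0.3004), CDC20 (0.223), BUB3 (0.193) and HJURP (0.229, effects on the natural log scale). With TPM as deposited, the levels of all 5 overlapped between the groups. Means in HA-TAZ and control libraries were 23.2 and 22.1 TPM for BIRC5 and 7.85 and 7.26 TPM for ESPL1. They were 32.52 and 32.54 TPM for CDC20, 38.2 and 39.5 TPM for BUB3, and 12.76 and 12.76 TPM for HJURP. HJURP as a gene had a negative log2 fold change of −0.055 and was not called.

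A list of 122 other mitotic genes gave 129 tested gene IDs of 121 symbols. Of these, 5 rose and 1 fell in scaled TPM (limma, an adjusted p-value under 0.05), or 4.65% in all. Over all genes 4.67% were called higher and 2.63% lower, 7.29% in all. The median log2 fold change of the list was 0.058, against −0.025 over all genes tested. With TPM as deposited 0 were called higher and 16 lower, with a median of −0.21, against 1.15% and 13.5% of all genes. When factors came from protein-coding genes, 2 passed as higher and 5 as lower, against 2.91% and 3.79% of all genes. MYBL2, which encodes B-MYB and binds promoters of mitotic genes, was at 112.3, 102.0 and 104.6 scaled TPM in HA-TAZ and 72.4, 82.1 and 81.0 in control libraries (log2 fold change 0.43, SE 0.067, limma's adjusted p = 0.0295). The groups did not overlap. CDC25A, the CDC25 phosphatase that also acts at S phase entry, rose by 0.37 and PKMYT1, a kinase that inhibits CDK1, by 0.29 on the log2 scale. E2F4, a repressor of cell cycle genes in quiescence, rose by 0.29, and RAN, the GTPase that RANGAP1 acts on, by 0.27. With TPM as deposited CDC25A and MYBL2 stayed positive (0.099 and 0.14), and E2F4 (−0.0064), PKMYT1 (−0.00088) and RAN (−0.035) did not. Large positive values that were not called were those of ANAPC11 (0.62), LIN37 (0.57) and UBE2S (0.47), and large negative ones those of PDS5B (−0.32) and CENPI (−0.29). The medians of the 11 classes of this list ranged from −0.037 for condensin to 0.15 for regulators of mitotic entry and exit. As a comparison, 22 genes of the G1/S transition had a median of 0.14 in scaled TPM, with 0 called by limma after adjustment. At an unadjusted p-value under 0.05, 9 were higher and 0 lower, against 16.6% and 14.1% of all genes. With TPM as deposited the median of these genes was −0.16, against −0.27 over all genes. On that scale 0 were called higher and 3 lower, against 1.15% and 13.5% of all genes.

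Fold changes of the members went with the base composition of their RNA. Over 41 gene IDs whose most abundant typed transcript was protein-coding, Pearson's r between the log2 fold change and the GC content of that transcript was 0.59 (Spearman's rho 0.58). Over 9283 genes of the same kind it was 0.28 (rho 0.33), and both describe genes that share the same 6 libraries, since genes are not independent replicates. The correlation with the log of transcript length was −0.19 over the members and −0.12 over all. The 11 members with at least 50% GC had a median log2 fold change of 0.12, against 0.17 over 4052 genes in that range. The 9 members from 45% to under 50% GC had a median of −0.0046, against 0.055 over 1701 genes. The 10 members from 40% to under 45% GC had a median of −0.097, against 0.025 over 2133 genes, and the 11 under 40% one of −0.052, against 0.016 over 1397 genes. In every range the median of the members was the lower. RANGAP1 and CDC25B had the highest GC contents of the members plotted, 60.2% and 59.0%, and BUB1, at 42.9%, rose with a GC content below the median of 44.8%. The part of GC content in the fold changes was not tested.

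**Figure D5:**
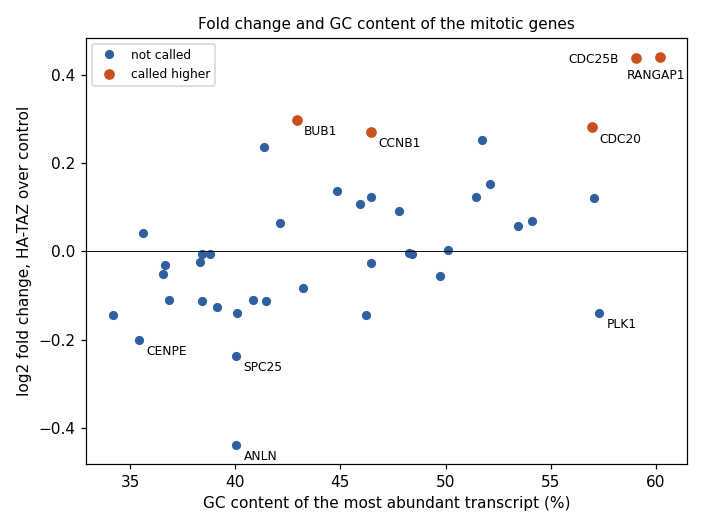
Log2 fold change (scaled TPM) against the GC content of the most abundant transcript for 41 gene IDs, with the 5 genes called higher in orange. Values tend to be higher at higher GC (r = 0.59), with BUB1 above and PLK1 below the others of like GC content; with TPM as deposited BUB1, CDC20 and CCNB1 were not separated from controls.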

How the data were processed

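Per the labels' protocols, a stranded kit for total RNA with ribosomal depletion was used, and reads were paired. Per the submitters' processing notes, the tools included FastQC, MultiQC, kallisto 0.46.0 and sleuth 0.30.0, and the build was GRCh37. The annotation release and whether strand was used are not given in the sources used here, so values of overlapping genes are uncertain. The authors deposited TPM for 215170 transcripts in 6 libraries, which sum to the same total and carry no depth. They also deposited a Wald test per transcript, per the file headers, with p-values and q-values, and effects and means as a natural log. Its variance terms were not used. The control columns were assigned to wild type by elimination.

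TPM was summed per gene ID. Factors were medians of ratios over 21512 genes above 0 in all libraries. Genes with a mean of at least 1 TPM were tested on log2(scaled TPM + 1) by limma with a mean-variance trend. Tests were two-sided, p-values were adjusted over all genes tested by Benjamini-Hochberg, and 0.05 was the limit. Fold changes are on this log2 scale and understate changes of low genes. The fit was tested on simulated data built without a shift in library scale between the groups, so that test cannot check the scaling. Members and lists were chosen with earlier results of these data known. Every called member is given in full and, in each role group, the genes of the highest level, the largest rise and the largest fall with each library's level and their most abundant transcript. Others were named to account for all members, some with library values chosen after these were seen. Of the other mitotic genes, those called and the 3 largest changes in each direction were named, and of transcripts those whose q-value, in the authors' deposited table, was under 0.05. The values of 1 of these genes are not reported here. GENCODE release 29 gave transcript types, lengths and GC content, and RefSeq (GRCh38.p14) the promoter windows. Fits ran in limma 3.58.1 under R 4.3.3, and other steps in Python 3.11.15 with pandas 2.3.3, scipy 1.17.1, numpy 2.4.6 and matplotlib 3.10.9.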

Additional observations from a re-analysis of the deposited data

How the results depend on the processing

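The 5 members called higher became 4, without CDC20, when 0.1 in place of 1 was added before the log. They also became 4, again without CDC20, with a minimum mean of 5 TPM or with factors over protein-coding genes. They became 2 without a filter on level, 0 with TPM as deposited and 1 in limma without trend. They became 3 with protein-coding transcripts only, an alternative chosen after seeing the data. Of 14 alternative fits, CDC20 was called in 1, BUB1, CCNB1 and RANGAP1 in 5 each and CDC25B in 9. The 0 called lower became 3 when the mean had to reach 5 TPM (14.8% of the 12613 genes then tested were called), 7 with TPM as deposited, 2 with factors over protein-coding genes, 1 with TPM summed per gene symbol (CENPE) and 8 with protein-coding transcripts only. The median of the members moved from −0.00087 to −0.061, −0.28, −0.072 and −0.083 with a minimum mean of 5 TPM, with TPM as deposited, with factors over protein-coding genes and with protein-coding transcripts only. Medians of all genes were −0.013, −0.27, −0.088 and −0.0027 in these fits. Of the other mitotic genes, the 5 called higher became 1 without a filter, 0 as deposited, 2 with protein-coding factors, 0 without trend and 8 with protein-coding transcripts, and the 1 called lower became 6 with a minimum mean of 5 TPM, 16 as deposited, 5 with protein-coding factors and 11 with protein-coding transcripts. All genes called numbered 1652 (7.29%), and 691 (1.46%) without a filter, 3329 (14.7%) as deposited and 758 (3.35%) without trend. They were 7.13% with 0.1 added before the log, 6.71% with protein-coding factors and 14.8% with a minimum mean of 5 TPM. With TPM summed per gene symbol they were 8.52%, and with protein-coding transcripts 18.9%. Of the calls, 64.0% were higher in the main fit and 7.84% as deposited. This share was 43.4% with protein-coding factors and 50.2% with protein-coding transcripts. The shift as deposited follows from leaving the libraries unscaled, and the cause of the others was not tested.

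Across the 6 fits that each left out a library, members called higher ranged from 0 to 1, members called lower from 0 to 0, their median from −0.0064 to 0.047 (without HA-TAZ 3), other mitotic genes called higher from 0 to 1 and lower from 0 to 1, and all genes called from 118 with HA-TAZ 1 left out to 470 with control c left out. Fewer libraries entered these fits. CDC25B was called without control a and without control c. WWTR1 was called under every alternative run, from 6.71 to 6.85 in these 6 fits. The 8 transcript calls of members in the authors' deposited table became 7 at a q-value under 0.01.

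Signs turned from positive to negative for 19 of 46 member gene IDs with TPM as deposited, 5 with factors over protein-coding genes and 2 of 45 with a minimum mean of 5 TPM. With protein-coding transcripts only, 6 of 45 turned negative and 1 positive. Of the genes named by the rule, those that turned with TPM as deposited were CDC20 (−0.014), CCNB1 (−0.026), CDCA8 (−0.17), INCENP (−0.15), BIRC5 (−0.041), BUB3 (−0.062), KIF2C (−0.28), RAN (−0.035), E2F4 (−0.0064) and PKMYT1 (−0.00088). Of these KIF2C also turned with a minimum mean of 5 TPM (−0.050) and with factors over protein-coding genes (−0.067). Those that turned with protein-coding transcripts only were PTTG1 (0.074), CDCA8 (−0.023) and INCENP (−0.063). In fits that left out a library, 0 to 6 member signs turned, and of the genes named by the rule MKI67 ranged from −0.038 to 0.029 and KIF2C from −0.040 to 0.058.

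No paired analysis was possible because the control columns, though numbered, carry a name that is in no label, so their numbers could not be tied to the numbered samples.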
